A study of Mus musculus with 6 samples.

Results

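The miR-30 family was followed in small RNA libraries of mouse dermal fibroblasts through 10 mature arms, the 5p arms mmu-miR-30a-5p, mmu-miR-30b-5p, mmu-miR-30c-5p, mmu-miR-30d-5p and mmu-miR-30e-5p and the 3p arms mmu-miR-30a-3p, mmu-miR-30b-3p, mmu-miR-30c-2-3p, mmu-miR-30d-3p and mmu-miR-30e-3p. They are named below without the species prefix, which marks mouse. They were taken by name from a count table that lists 1907 mature microRNAs (miRNAs), and all 10 had enough counts to be tested. One group of cells, genotype Col1a2Cre-caNrf2, carried a constitutively active mutant of Nrf2 (caNrf2), the main activator of antioxidant and detoxification genes. The other, genotype Col1a2Cre-wt (ctrl), carried the Cre alone, so a Cre recombinase under the fibroblast-active Col1a2 promoter was common to both groups. Each group had 3 libraries, each from the primary skin fibroblasts of a different newborn mouse of mixed C57Bl/6 and FVB/N background, sequenced at passage 1 after 6 days in culture. The transgene is not an miRNA, so the counts give no check of it.

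Each miRNA is cut from a hairpin precursor as a 5p and a 3p arm, and the arm that is loaded into the silencing complex pairs with target messages mainly through its seed, bases 2 to 8. The miR-30 family has a 5p seed in common and is known for repressing Snai1, a driver of epithelial-mesenchymal transition, and Ccn2 (CTGF), a matrix-inducing growth factor (Ccn2 in rat heart cells). Its 3p arms carry other seeds and are usually the passenger strands.

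The mature sequences are shown because the members share seeds and some are nearly identical. Of the 10 members, 6 matched the RefSeq miRNA table (build GRCm38.p6), and the arms of miR-30b and miR-30d are named only. In the lines below the capitals mark the seed.
miR-30a-5p: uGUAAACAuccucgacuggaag
miR-30e-5p: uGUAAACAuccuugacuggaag
miR-30c-5p: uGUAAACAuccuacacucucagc
miR-30a-3p: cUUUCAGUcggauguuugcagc
miR-30e-3p: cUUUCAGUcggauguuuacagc
miR-30c-2-3p: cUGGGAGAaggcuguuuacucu
miR-30c-1-3p: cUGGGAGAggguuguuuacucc

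The last of these, miR-30c-1-3p, is no member of the list but is the 3p arm of the other miR-30c precursor. Among 1679 mature names in the RefSeq table, 4 had GUAAACA at bases 2 to 8, namely miR-30a-5p, miR-30c-5p, miR-30e-5p and miR-384-5p. The seed UUUCAGU occurred in 2 of them, miR-30a-3p and miR-30e-3p. Counting from the 5′ end of miR-30a, its 5p arm differed from miR-30e-5p by the single substitution C13U and its 3p arm from miR-30e-3p by G18A. miR-30c-2-3p differed from miR-30c-1-3p by A9G, C12U and U22C. The rules for reads with mismatches or several matches are not stated in the labels or files, so the separate counts of miR-30a and miR-30e arms are uncertain.

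The members come from 3 genomic pairs of precursors (mm10, GENCODE M21). Mir30a (chr1:23272269-23272339, plus strand) overlaps no other annotated gene, and Mir30c-2 (chr1:23291701-23291784, plus strand) lies 19361 bases further on within an exon of the long noncoding RNA Gm27028. Mir30c-1 (chr4:120769534-120769622) and Mir30e (chr4:120772606-120772697), on the minus strand and 2983 bases apart, both lie in an intron of Nfyc, which encodes a subunit of the CCAAT-binding factor NF-Y. Mir30b (chr15:68337415-68337510) and Mir30d (chr15:68341208-68341289), also on the minus strand, are 3697 bases apart. Mir30d lies within an exon of the long noncoding RNA Gm20732, and Mir30b overlaps an exon of the processed transcript Gm26621 in part. The hairpins below, with the mature arms in capitals, show that both miR-30c precursors hold the same 5p arm. Its counts therefore belong to chromosome 1 or 4, while each 3p arm marks its own precursor. How reads that match both precursors were counted is not stated. The counts of miR-30c-5p, and its ratio to the 3p arms, are therefore uncertain too.
Mir30a: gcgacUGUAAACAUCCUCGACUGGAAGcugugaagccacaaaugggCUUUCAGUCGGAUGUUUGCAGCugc
Mir30c-2: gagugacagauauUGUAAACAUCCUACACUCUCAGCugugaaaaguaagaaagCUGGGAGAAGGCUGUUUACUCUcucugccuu
Mir30c-1: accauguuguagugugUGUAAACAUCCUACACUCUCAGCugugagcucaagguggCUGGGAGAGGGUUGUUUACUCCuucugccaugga
Mir30e: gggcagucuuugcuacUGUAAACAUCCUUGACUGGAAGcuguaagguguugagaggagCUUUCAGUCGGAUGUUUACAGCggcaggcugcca

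The deposited counts summed to between 13733970 and 28237159 in the caNrf2 libraries and between 10443268 and 20595024 in the ctrl libraries. The 8 fibroblast and mesenchymal miRNAs listed as markers, among them miR-199a, miR-143, miR-21a, miR-10b and miR-22, were all detected and held 49.8% to 51.5% of the counts in caNrf2 and 45.6% to 46.5% in ctrl libraries. Of these 8, miR-22-3p rose and 3 fell, miR-199a-5p, miR-199a-3p and miR-10b-5p. Markers of other cells summed to far less, although the epithelial marker miR-205-5p ranked 72 in mean level among the tested miRNAs. The sums for blood, muscle and neural cells moved with the genotype. The 5 blood markers summed to 157 to 234 CPM (counts scaled to library size with TMM factors) in caNrf2 libraries and 36.2 to 69.4 CPM in ctrl libraries, and 3 of them rose. The 3 muscle markers summed to 543 to 720 CPM in caNrf2 and 335 to 411 CPM in ctrl libraries, and both tested ones rose. Nearly all of this sum was miR-133a-3p, with a mean of 614 CPM in caNrf2 and 371 CPM in ctrl fibroblasts. The untested marker, miR-1a-3p, reached 16 counts in all caNrf2 and 9 in all ctrl libraries. The 7 epithelial markers summed to 1600 to 2121 CPM in caNrf2 and 1035 to 1865 CPM in ctrl libraries, and the 2 endothelial markers to 147 to 170 CPM in caNrf2 and 116 to 165 CPM in ctrl libraries. Both sums overlapped, and edgeR called 0 of these 9 markers, with 1 epithelial marker higher at an unadjusted p under 0.05 and also called by DESeq2. The 2 neural markers summed to 11.6 to 13.8 CPM in caNrf2 and 5.68 to 9.13 CPM in ctrl libraries, and the tested one, miR-9-5p, rose. No listed marker was at 0 in all libraries. The part of these cells in the results on miR-30 was not tested.

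The miR-30 family was abundant in these fibroblasts, and its share of all miRNA counts was slightly lower in caNrf2 than in ctrl fibroblasts. No test was run on sums over the members. The 10 members together held 2.41%, 2.51% and 2.46% of all miRNA counts in caNrf2 libraries 1, 2 and 3, against 2.91%, 2.68% and 2.65% in ctrl libraries 1, 2 and 3. The groups did not overlap. On the TMM scale the 5p arms summed to 23853 ± 1054 CPM in caNrf2 and 27023 ± 1376 CPM in ctrl fibroblasts (SD, n = 3 each), and the 3p arms to 552 ± 30.3 CPM in caNrf2 and 642 ± 16.0 CPM in ctrl fibroblasts, neither with overlap. The 5p arms accounted for 97.7% ± 0.036 of the family's counts in caNrf2 and 97.7% ± 0.14 in ctrl fibroblasts (SD, n = 3 each). The share of the total depends on miR-22-3p, the most abundant miRNA, which rose in caNrf2 fibroblasts (log2 fold change 0.31 ± 0.10, SE; edgeR adjusted p = 0.0349). Once miR-22-3p was removed from the denominator, the family held 3.16% ± 0.074 in caNrf2 and 3.33% ± 0.18 in ctrl fibroblasts, and the groups overlapped. In bulk RNA, fewer cells of a type and less RNA per cell cannot be told apart.

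**Figure D1:**
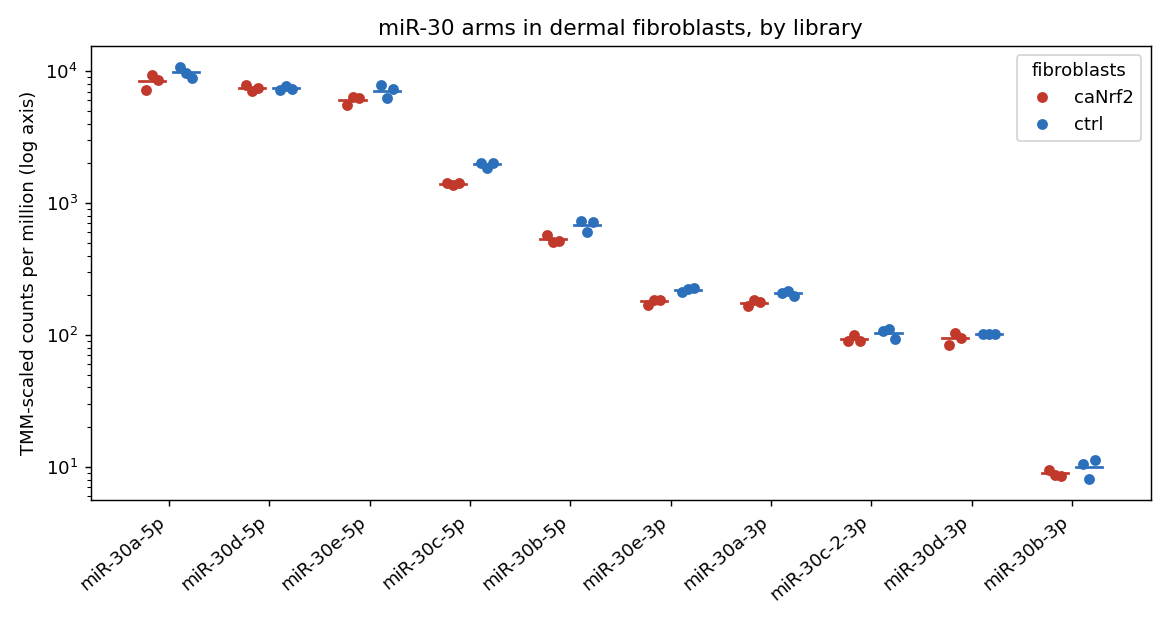
TMM-scaled CPM of each miR-30 arm (log axis), with 1 point per library and a line at the group mean, caNrf2 left of ctrl (3 libraries each). The 5p arms lie between 506 and 10831 CPM and the 3p arms between 8.03 and 227 CPM, and the points of miR-30c-5p, miR-30b-5p, miR-30e-3p and miR-30a-3p do not overlap between the groups.

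Levels of single arms spanned a wide range. CPM values are not per length, but the matched arms are 22 or 23 bases long, and ligation during library preparation, known to favour some small RNA ends, was not measured. Highest were miR-30a-5p, miR-30d-5p and miR-30e-5p, which ranked 19, 24 and 30 among the tested miRNAs by mean CPM. miR-30a-5p and miR-30d-5p overlapped in caNrf2 libraries, and miR-30d-5p and miR-30e-5p in ctrl libraries, so no neighbouring pair in this order was separated in both groups. miR-30c-5p ranked 63 and miR-30b-5p 92. Among the 3p arms, miR-30e-3p and miR-30a-3p overlapped at ranks 151 and 153, as did miR-30c-2-3p and miR-30d-3p at ranks 196 and 197. miR-30b-3p was the lowest at rank 382, with only 135, 210 and 238 counts in the caNrf2 and 109, 132 and 227 counts in the ctrl libraries.

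Against the ctrl libraries, 3 of the 10 members fell in caNrf2 fibroblasts, miR-30c-5p, miR-30b-5p and miR-30e-3p, and none rose (edgeR quasi-likelihood test, Benjamini-Hochberg adjusted over all 697 tested miRNAs, threshold 0.05). At an unadjusted p under 0.05, 5 members were lower and 0 higher, where 38% of all tested miRNAs passed in either direction and 16.9% as lower, and DESeq2 also called 3 lower and 0 higher. Of all tested miRNAs 25.7% were called in either direction and 11.6% as lower. The median log2 fold change of the members was -0.23, against 0.03 for all tested miRNAs, and 9 of the 10 values were negative (all 10 with RLE size factors, DESeq2 or the 5 most abundant miRNAs left out). For 4 members the groups' CPM ranges lay apart, all lower in caNrf2, while 41.6% of all tested miRNAs did not overlap and 17.9% did so as lower. The arms are not independent of each other, since they come in pairs from shared precursors. Over the whole table the test has limited reach, since in simulated counts 65.7% of miRNAs changed 1.5-fold were recovered. These were drawn at random from all tested miRNAs, and recovery at the levels and spread of the miR-30 arms was not measured. Every member changed by less than 1.5-fold, and such smaller changes were not simulated.

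**Figure D2:**
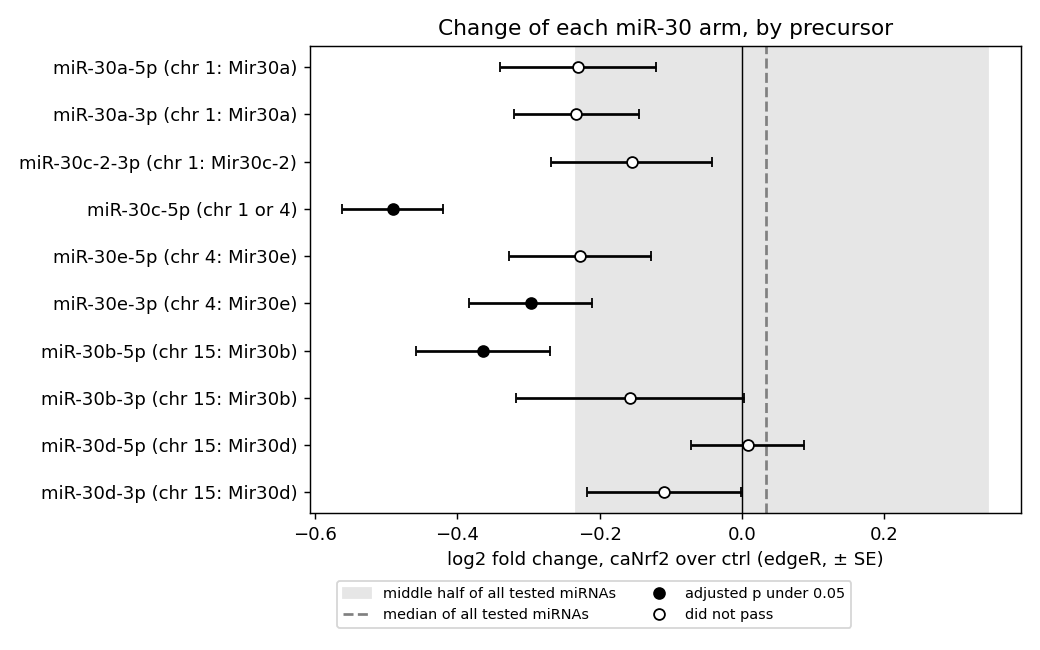
Log2 fold change of each miR-30 arm, caNrf2 over ctrl (edgeR, points with SE, 3 libraries per group), ordered by precursor. Filled points passed an adjusted p under 0.05, the grey band is the interquartile range of all 697 tested miRNAs and the dashed line their median, 0.03. miR-30c-5p lies farthest to the left at -0.49, and miR-30d-5p alone lies to the right of 0, at 0.01, and to the left of it with RLE size factors.

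miR-30c-5p, known in mouse for repressing Mttp and so lipoprotein secretion, had the largest fall of the 10. It had 1411, 1361 and 1414 CPM in caNrf2 libraries 1, 2 and 3, against 2004, 1858 and 2020 CPM in ctrl libraries 1, 2 and 3. The libraries of each group lay close together and the groups were well apart. The fall was 0.712-fold (log2 fold change -0.49 ± 0.07, SE; edgeR adjusted p = 8.16e-04). It was called in all 14 alternatives, which leave out each library or change the scaling, filter, block or tool, with adjusted p from 7.73e-06 to 0.00558.

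The 3p arms of the precursors of miR-30c-5p had smaller estimated falls. miR-30c-2-3p, from chromosome 1, had 89.2, 101 and 89.4 CPM in caNrf2 and 107, 111 and 93.3 CPM in ctrl libraries, which overlapped (log2 fold change -0.16 ± 0.11; edgeR adjusted p = 0.340, 95% interval -0.41 to 0.10). miR-30c-1-3p, from chromosome 4, had 51.5, 53.0 and 52.3 CPM in caNrf2 and 55.6, 63.6 and 65.3 CPM in ctrl libraries, which did not overlap, and did not pass either (-0.24 ± 0.12; edgeR adjusted p = 0.171). Of the reads from both 3p arms, miR-30c-2-3p took 64.0% ± 1.32 in caNrf2 and 62.7% ± 3.56 in ctrl fibroblasts, and these shares overlapped. There were 10.03, 8.86 and 9.97 miR-30c-5p reads per 3p read in caNrf2 libraries and 12.3, 10.6 and 12.7 in ctrl libraries. These ratios did not overlap. Tested as a pair added after seeing the data, the ratio had a log2 change of -0.31 ± 0.12 (edgeR unadjusted p = 0.0213) and missed the threshold over 213 pairs (edgeR adjusted p = 0.239). That miR-30c-5p fell further than its own 3p arms is therefore not shown at this threshold.

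miR-30b-5p and miR-30d-5p come from neighbouring precursors on chromosome 15 and are known, in human melanoma, for repressing GALNT7. miR-30b-5p had 572, 506 and 514 CPM in caNrf2 libraries, against 726, 601 and 721 CPM in ctrl libraries. The groups did not overlap, although ctrl library 2 lay near the caNrf2 libraries, and the fall was 0.777-fold (log2 fold change -0.36 ± 0.09; edgeR adjusted p = 0.0164). This call was lost without caNrf2 library 2 (adjusted p = 0.0511), caNrf2 library 3 (0.0586), ctrl library 1 (0.0605) or ctrl library 3 (0.0753).

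miR-30d-5p, the more abundant arm of that cluster, had 7876, 7032 and 7474 CPM in caNrf2 and 7233, 7718 and 7312 CPM in ctrl libraries. The groups interleaved. The log2 fold change was 0.01 ± 0.08, with a 95% interval of -0.17 to 0.18 (edgeR adjusted p = 0.956), and its sign turned negative with RLE size factors, with DESeq2 and without the 5 most abundant miRNAs. There were 13.8, 13.9 and 14.5 miR-30d-5p reads per miR-30b-5p read in caNrf2 libraries and 9.96, 12.8 and 10.1 in ctrl libraries, without overlap. As the other pair added after seeing the data, this ratio had a log2 change of 0.37 ± 0.11 (edgeR unadjusted p = 0.00383) and did not pass over 213 pairs (edgeR adjusted p = 0.150). The 3p arms did not separate the groups. miR-30d-3p had 84.5, 103 and 94.7 CPM in caNrf2 and 101, 102 and 102 CPM in ctrl libraries, and miR-30b-3p had 9.47, 8.73 and 8.52 CPM in caNrf2 and 10.5, 8.03 and 11.2 CPM in ctrl libraries. Their log2 fold changes were -0.11 ± 0.11 and -0.16 ± 0.16 (edgeR adjusted p = 0.502 and 0.519).

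Both arms of Mir30e, in the intron of Nfyc, had negative changes, and only the minor arm passed. miR-30e-3p had 169, 184 and 185 CPM in caNrf2 libraries, against 211, 224 and 227 CPM in ctrl libraries. The groups did not overlap and the fall was 0.814-fold (log2 fold change -0.30 ± 0.09; edgeR adjusted p = 0.0275). It was no longer called by edgeR when no filter was used (adjusted p = 0.0952) and without any one library other than ctrl library 1 (adjusted p from 0.0525 to 0.105, lowest without caNrf2 library 2 and highest without ctrl library 3). miR-30e-5p, known in human cells for repressing the SUMO-conjugating enzyme UBC9, had 5556, 6413 and 6306 CPM in caNrf2 and 7817, 6300 and 7281 CPM in ctrl libraries. Here ctrl library 2 lay among the caNrf2 libraries, and the change of -0.23 ± 0.10 (log2) missed the threshold (edgeR adjusted p = 0.121). Without ctrl library 2 it was called as lower (edgeR adjusted p = 0.0396).

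Mir30a gave the most abundant member, miR-30a-5p, known in human cells for repressing the autophagy gene BECN1. It had 7233, 9292 and 8600 CPM in caNrf2 and 10831, 9716 and 8931 CPM in ctrl libraries. The libraries spread widely in both groups, with caNrf2 library 1 the lowest and ctrl library 1 the highest, and caNrf2 library 2 above ctrl library 3. Its change of -0.23 ± 0.11 (log2) missed the threshold (edgeR adjusted p = 0.154, 95% interval -0.48 to 0.01). miR-30a-3p had 167, 183 and 179 CPM in caNrf2 and 209, 215 and 196 CPM in ctrl libraries. These groups did not overlap, but the change of -0.23 ± 0.09 (log2) was not called (edgeR adjusted p = 0.0779), nor was it in any of the 14 alternatives (adjusted p from 0.0509 to 0.265).

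By cluster, the summed arms on chromosomes 1 and 4 had lower means in caNrf2 fibroblasts, and the sum on chromosome 15 had nearly equal ones. None of the 3 sums separated the groups. The miR-30a arms with miR-30c-2-3p held 0.870% ± 0.088 of the counts in caNrf2 and 1.01% ± 0.10 in ctrl fibroblasts (SD, n = 3 each). The miR-30e arms held 0.631% ± 0.033 in caNrf2 and 0.729% ± 0.074 in ctrl fibroblasts. Those of miR-30b and miR-30d held 0.816% ± 0.064 in caNrf2 and 0.815% ± 0.023 in ctrl fibroblasts. miR-30d-5p made up most of this sum, which therefore hides the fall of miR-30b-5p. miR-30c-5p, which cannot be placed, was the exception with 0.141% ± 0.0055 in caNrf2 and 0.195% ± 0.0077 in ctrl fibroblasts, without overlap.

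Within the family, proportions do not depend on library scaling. Of the summed 5p counts, miR-30c-5p made up 6.23%, 5.53% and 5.82% in caNrf2 libraries and 7.004%, 7.09% and 7.69% in ctrl libraries, and it was the only 5p arm whose share did not overlap between the groups. miR-30a-5p made up 35.0% ± 2.93 in caNrf2 and 36.3% ± 2.04 in ctrl fibroblasts, and miR-30e-5p 25.5% ± 0.85 in caNrf2 and 26.4% ± 2.01 in ctrl fibroblasts. The share of miR-30d-5p was 34.8%, 28.6% and 30.7% in caNrf2 libraries and 25.3%, 29.5% and 27.8% in ctrl libraries. It was highest in caNrf2 library 1 and lowest in ctrl library 1, with the others overlapping. miR-30b-5p made up 2.23% ± 0.26 in caNrf2 and 2.53% ± 0.22 in ctrl fibroblasts. The counts of the near-identical arms miR-30a-5p and miR-30e-5p stood in a ratio of 1.30 to 1.45 in caNrf2 and 1.23 to 1.54 in ctrl libraries, so the ratio was not fixed across libraries.

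**Figure D3:**
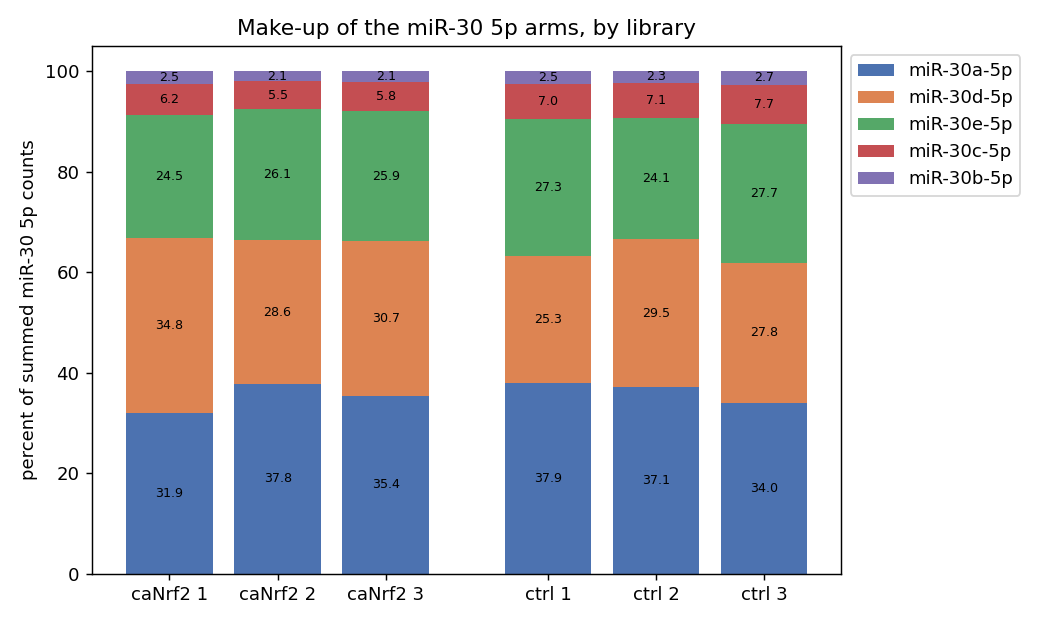
Share of each 5p arm in the summed miR-30 5p counts (percent), 1 bar per library, caNrf2 left of ctrl. miR-30a-5p, miR-30d-5p and miR-30e-5p make up most of each bar, and the share of miR-30c-5p is 5.53% to 6.23% in caNrf2 and 7.004% to 7.69% in ctrl libraries.

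The balance between the arms of 1 hairpin asks whether the ratio of 5p to 3p counts differs between the genotypes. In all 4 testable precursors the 5p arm dominated. miR-30d had 93.2, 68.5 and 78.9 5p counts per 3p count in caNrf2 and 71.7, 75.9 and 71.97 in ctrl libraries, and miR-30a had 43.4, 50.8 and 48.1 in caNrf2 and 51.7, 45.1 and 45.5 in ctrl libraries. The arms of miR-30e had a ratio of 32.8, 34.8 and 34.2 in caNrf2 and 37.1, 28.1 and 32.1 in ctrl libraries. For these 3 precursors the groups overlapped. miR-30b had 60.4, 58.0 and 60.3 5p counts per 3p count in caNrf2 libraries, all below the 69.2, 74.8 and 64.3 of the ctrl libraries.

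None of the 4 ratios passed the test of arm by genotype over 211 arm pairs (edgeR quasi-likelihood test; 0 of 4 also at an unadjusted p under 0.05, and 0 of 4 with limma-voom). The edgeR fit called 0 of the 211 pairs, or 0% of them, with 28 at an unadjusted p under 0.05, and limma-voom called 0. The edgeR test called 1 of 99 pairs when both arms had to average at least 10 CPM and 3 of 224 without caNrf2 library 1, none of them a miR-30 pair. The log2 change of the miR-30a ratio was 0.00 ± 0.10, with a 95% interval of -0.22 to 0.22, and that of miR-30e was 0.07 ± 0.11, with an interval of -0.16 to 0.31. For miR-30d it was 0.12 ± 0.12 (-0.13 to 0.36). The largest of the 4, in miR-30b, was -0.21 ± 0.15 (-0.53 to 0.10; edgeR adjusted p = 0.592). Its two-sided exact permutation p was 0.1, the smallest that 3 against 3 libraries allow. Over simulated pairs, drawn at random from all 211, the test recovered 70% of ratios changed 1.5-fold. Recovery for the miR-30 pairs alone was not measured, and smaller changes were not simulated.

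**Figure D4:**
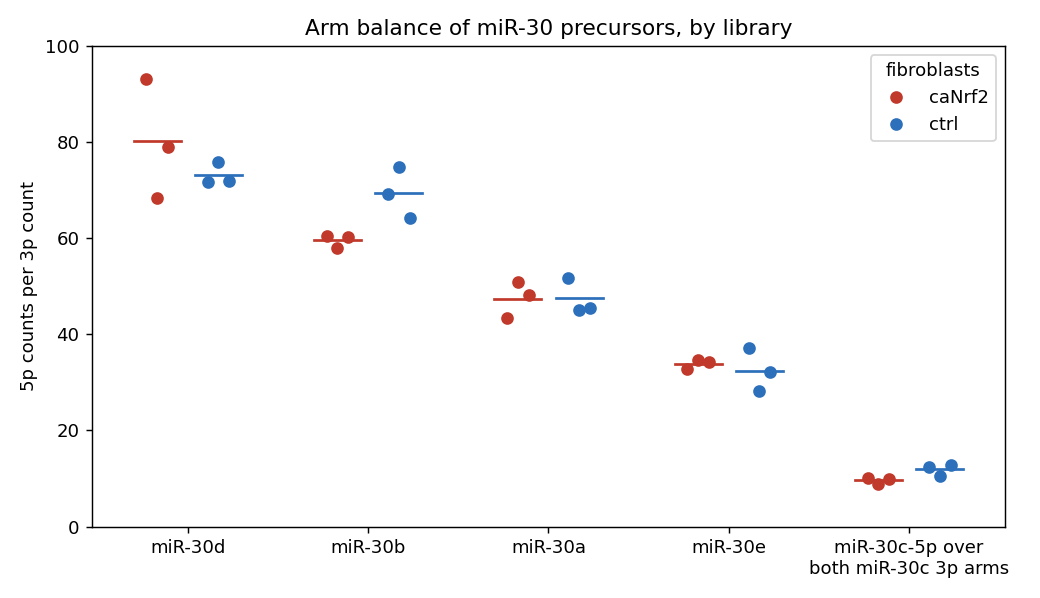
5p counts per 3p count for each miR-30 precursor with its own pair of arms, and for miR-30c-5p over the sum of both miR-30c 3p arms, with 1 point per library and a line at the group mean, caNrf2 left of ctrl. The groups overlap for miR-30d, miR-30a and miR-30e, and the caNrf2 libraries lie below the ctrl libraries for miR-30b (58.0 to 60.4 against 64.3 to 74.8) and for miR-30c-5p (8.86 to 10.03 against 10.6 to 12.7).

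The other listed carrier of the 5p seed, miR-384-5p, and miR-30f had almost no counts. miR-384-5p, known from brain, had 4 counts over the caNrf2 and 0 over the ctrl libraries, where 3 counts correspond to 0.148 to 0.289 CPM per library. miR-30f, annotated on the strand opposite Mir30e and with another seed, had 2 counts over the caNrf2 and 4 over the ctrl libraries.

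Outside the family, 3 miRNAs followed the summed 5p arms most closely over the 6 libraries, out of 361 tested ones averaging at least 10 CPM. The Pearson r of log2 CPM was 0.967 for miR-26a-2-3p, 0.960 for miR-872-5p and 0.946 for miR-450b-5p (n = 6 libraries of 2 genotypes, which share their depth and scaling), given as a description. Of these, miR-26a-2-3p had 14.98 ± 1.01 CPM in caNrf2 and 23.2 ± 5.79 CPM in ctrl fibroblasts, and miR-450b-5p had 112 ± 10.3 CPM in caNrf2 and 186 ± 12.5 CPM in ctrl fibroblasts. Both fell (edgeR adjusted p = 0.0295 and 8.02e-04), while miR-872-5p, at -0.17 ± 0.08 on the log2 scale, was not called (edgeR adjusted p = 0.158). All 3 were chosen for following a sum that was itself lower in caNrf2 libraries, so their falls are no separate result.

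Other miRNAs that bear on the known targets of miR-30 were compared in the same fit. Of 9 tested miRNAs reported to target Ccn2, 2 rose and 1 fell, where 14.1% of all tested miRNAs were called higher and 11.6% lower. Their median log2 fold change was 0.20, against 0.03 for all tested miRNAs. Summed, they had 29151 to 32567 CPM in caNrf2 and 34356 to 40528 CPM in ctrl libraries, lower in caNrf2 without overlap. Most of this sum was miR-26a-5p. miR-133a-3p, one of the muscle markers given above, shares the target with miR-30 in rat heart cells. It had 614 ± 90.3 CPM in caNrf2 and 371 ± 38.9 CPM in ctrl fibroblasts (log2 fold change 0.72 ± 0.12; edgeR adjusted p = 0.00145). miR-133b-3p rose by 0.67 ± 0.15 on the same scale (edgeR adjusted p = 0.00844). miR-26a-5p, the most abundant of the 3, had 23938 ± 1336 CPM in caNrf2 and 29661 ± 2816 CPM in ctrl fibroblasts (-0.31 ± 0.10; edgeR adjusted p = 0.0379). Of 8 tested miRNAs known for opposing epithelial-mesenchymal transition, edgeR called 0, with 1 higher at an unadjusted p under 0.05, and DESeq2 called 1 higher. Of these 8, 7 are the epithelial markers given above. Their median log2 fold change was 0.36, against 0.03 for all tested miRNAs. Those with the smallest p were miR-205-5p (0.54 ± 0.19; edgeR adjusted p = 0.0590), miR-200c-3p (0.39 ± 0.18; 0.134) and miR-34a-5p (-0.23 ± 0.10; 0.137).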

How the data were processed

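The authors deposited unnormalized read counts by mature miRNA name, with 1 file a library. Their tools, per the submitters' processing notes, included cutadapt, CASAVA 1.8, featureCounts, Bowtie and edgeR on the mm10 build, with no order or settings stated. The whole table was fitted by R 4.3.3 and edgeR 4.0.16 (filterByExpr at a minimum count of 10, TMM factors from 0.984 to 1.04, glmQLFit, glmQLFTest, no term besides group), and the results given are those of miR-30 and of the miRNAs set beside it. SEs were derived from the F statistic, and CPM values are TMM-scaled. Arm balance was tested in edgeR on 12 columns (6 libraries by 2 arms) with library and arm as terms, over precursors with both arms tested. Alternatives used RLE factors, library totals, the table without its 5 most abundant miRNAs, DESeq2 1.42.0, limma-voom (limma 3.58.1), other filters, a replicate block and leaving out each library. The members and lists were chosen with earlier results of these data known. All 10 members and related arms were named, with the 3 closest patterns and up to 3 miRNAs of each target list by smallest p. miR-22-3p and miR-1a-3p were named outside that rule. Libraries of a group differed by a chi-square of at least 100.8 per degree of freedom, so none was a copy. Fits were tested on simulated data. No molecular identifiers are named, so depth covers counting error only.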

Additional observations from a re-analysis of the deposited data

How the results depend on the processing

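The count of 0 members higher held in all 14 alternatives, and that of 3 lower was 2 with no filter, 3 in the other 7 that kept all libraries, and 1 to 3 without 1 library. Restricting the test to an average of 10 CPM or more lowered the calls of higher miRNAs over the whole table to 60, from 98. That setting tested 371 miRNAs in place of 697, and the calls of lower miRNAs were 71, against 81. The difference in the share of the 3p arms was -0.0059 points when miR-22-3p was removed from the denominator, against -0.0082 points with it. After the removal the 3p shares were 0.0699% to 0.0747% in caNrf2 and 0.0751% to 0.0800% in ctrl libraries, still without overlap. The same removal lowered the difference of the 5p arms to -0.16 points, against -0.28, and the 5p shares then overlapped. miR-30d-5p reversed with RLE factors and DESeq2 (log2 fold change -0.031 each) and without the 5 most abundant miRNAs (-0.0075), and it ranged from -0.039 to 0.028 without 1 library. The ratio of the miR-30a arms, at 0.00, reversed to -0.00063 with the log2 ratio in limma with a replicate block and to -0.00067 in the exact permutation test, and ranged from -0.0503 to 0.0639 without 1 library. That of miR-30e ranged from -0.024 to 0.17. No causes were tested. In their deviations from the group means, same-numbered libraries had r = 0.179, 0.165 and -0.217 for numbers 1, 2 and 3. Libraries with different numbers had r from -0.378 to 0.331. With 3 libraries a group, these values cannot decide whether the numbers pair samples. With the replicate block 3 members were lower and 0 higher, and 87 miRNAs were lower and 102 higher in all. Depth limits miR-30b-3p most, whose 109 counts in ctrl library 1 have an exact Poisson 95% interval of 89.5 to 131.5.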
